A study of Mus musculus with 6 samples.

Results

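The interferon regulatory factors (IRFs) are transcription factors that share a DNA-binding domain built around conserved tryptophans and recognize GAAA repeats in promoters. Of 8 named family genes, Irf1, Irf2, Irf3, Irf4, Irf5, Irf7, Irf8 and Irf9, 7 had a probe set that carried only their own symbol on the array, out of 22180 genes measured in this way. The single probe set that names Irf5 also names its neighbour Tnpo3, so no value was taken for Irf5. Where a gene had several probe sets, the brightest over all arrays stood for it, and this concerned only Irf8, which had 2. The cells were 168FARN, a mouse mammary carcinoma line that stands for the triple negative subtype. The tested cells stably expressed a short hairpin against RKIP (RKIP knockdown, 3 samples), and the comparison cells a hairpin against firefly luciferase (control knockdown, 3 samples), both from the retroviral vector pSUPER.retro-puro. All cells therefore carried a hairpin vector, and none was stimulated with interferon or infected by the account of the sources used here. The authors describe the RNA as coming from 3 independent experiments. The sources used here do not say how many separately infected populations stand behind each hairpin. Total RNA of each sample was hybridized to its own Affymetrix Mouse Gene 2.0 ST array, and the values are log2 intensities.

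In a resting cell IRF3 is present in the cytoplasm and is activated by phosphorylation when sensors detect foreign nucleic acid, after which it switches on the first interferon genes. Secreted interferon acts back on the cell through receptors and Janus kinases, which lead to the complex ISGF3, with STAT2 and IRF9 among its subunits. ISGF3 binds the interferon-stimulated response element (ISRE), a repeat of GAAA, and induces many antiviral genes, among them IRF7, which widens and amplifies interferon production. IRF1 and IRF2 bind similar sites as an activator and mostly as its antagonist, while IRF4 and IRF8 are best known from lymphoid and myeloid cells.

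Pebp1, which encodes RKIP, read 7.14, 6.91 and 6.60 on the RKIP knockdown arrays, against 7.72, 7.70 and 7.72 on the control arrays, lower on every array without passing limma's test over all genes (adjusted p = 0.0996). The level left in the knockdown was 56.3% of control, and 67.3%, 57.4% and 46.2% on the single arrays. Over all genes the median log2 change was -0.01, and limma called 45 genes higher and 11 lower in the RKIP knockdown (adjusted p under 0.05). Since no array file gave a detection call, the 95th percentile of 1105 olfactory receptor genes, a log2 intensity of 5.33, served as a rough measure of background, and 57.4% of all genes lay above it. The line read far above that level for Vim (13.38 in the RKIP knockdown and 13.47 in the control knockdown) and for Fn1 (13.37 and 13.32 in the same order), and Krt8, an epithelial keratin, averaged 10.34 over all arrays, while Epcam lay below it at 4.70. Of 9 measured markers of such tumor lines none passed limma's test. At an unadjusted p under 0.05 from limma 1 was lower and none higher, beside 10.1% of all genes in either direction. All p-values measure the spread between the 3 samples of each hairpin.

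Irf7 rose in the RKIP knockdown and was the only one of the 7 family genes to pass limma's test (1 of 7 higher and 0 lower). Over all genes 0.203% were called higher and 0.0496% lower, or 0.252% in either direction. Irf9, Irf1 and Irf3 did not pass, but their 3 RKIP knockdown values lay above all 3 control values, as did those of Irf7. This makes 4 of 7 genes with separate groups on the high side and 0 on the low side, beside 8.67% of all genes on each side and 17.3% on either. The same 4 genes had an unadjusted p under 0.05 from limma, which 5.01% of all genes reached on the high side and 10.1% in either direction. Irf2, Irf4 and Irf8 overlapped between the groups. The median log2 change of the 7 genes was 0.15.

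**Figure D1:**
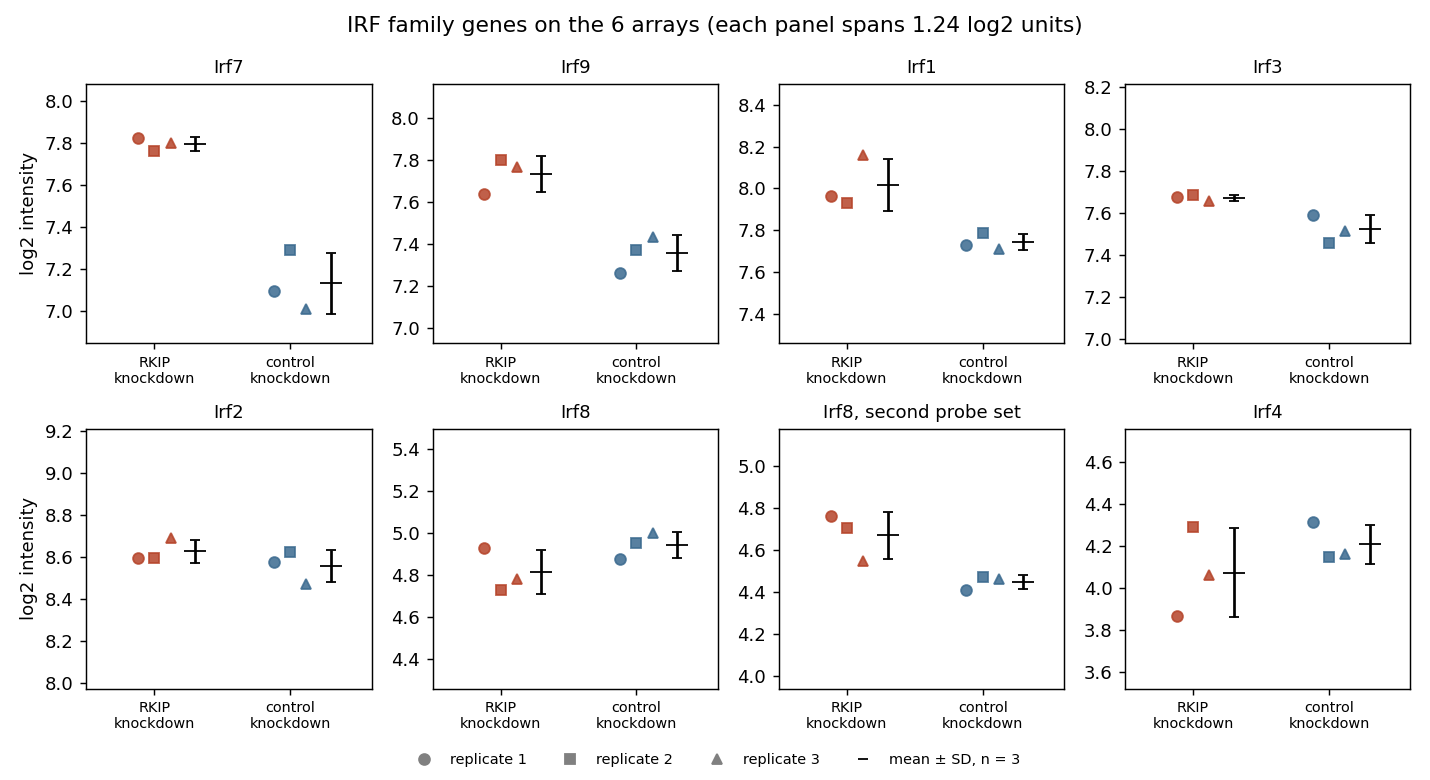
Log2 intensity of each IRF family gene on the 6 arrays (y axis, same span in every panel), with RKIP knockdown on the left and control knockdown on the right, symbols for the replicate numbers and mean ± SD beside them (n = 3 arrays per group). The RKIP knockdown arrays of Irf7 sit between 7.76 and 7.83 and its control arrays between 7.01 and 7.29, and the 2 probe sets of Irf8 point in opposite directions.

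IRF7 is the interferon-induced activator of the interferon alpha genes. Irf7 read 7.83, 7.76 and 7.80 on the RKIP knockdown arrays, against 7.10, 7.29 and 7.01 on the control arrays. The knockdown arrays lay close together (SD 0.03, n = 3) and the control arrays were more spread (SD 0.15, n = 3), with the second control array nearest to the knockdown group. The change was 1.59-fold (log2 change 0.67, standard error 0.08, 95% interval 0.46 to 0.87, adjusted p = 0.047 from limma). It was the 61st largest rise among 22180 genes. The adjusted p of Irf7 lay just under the threshold, and leaving out any 1 of the 6 arrays put it between 0.102 and 0.221 in limma's test, at log2 changes of 0.60 to 0.75. After a second quantile normalization it was 0.0604.

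IRF3, the factor that acts first in the induction of interferon, is made without interferon in most cells. Irf3 read 7.68, 7.69 and 7.66 on the RKIP knockdown arrays, against 7.59, 7.46 and 7.51 on the control arrays. The groups did not overlap, and the knockdown arrays (SD 0.01, n = 3) lay closer together than the controls (SD 0.07, n = 3). Its change was 1.11-fold (log2 change 0.15, standard error 0.06, 95% interval 0.01 to 0.30, adjusted p = 0.478 from limma). A rise of Irf3 as large as that of Irf7 lies outside this interval.

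IRF9 is the subunit of ISGF3 that contacts DNA. Irf9 read 7.64, 7.80 and 7.77 on the RKIP knockdown arrays, against 7.26, 7.37 and 7.43 on the control arrays. Every knockdown array was above every control array, and the SD was 0.09 in each group (n = 3). The change was 1.30-fold (log2 change 0.38, standard error 0.08, 95% interval 0.20 to 0.56, adjusted p = 0.164 from limma). With a variance trend over signal and robust fitting, the same change had an adjusted p of 0.0139 in limma, and 307 of all genes were then called higher, against 45 without these settings.

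IRF1 is induced by interferon gamma and by other cytokines and activates antigen processing genes. Irf1 read 7.96, 7.93 and 8.16 on the RKIP knockdown arrays, against 7.73, 7.79 and 7.71 on the control arrays. The third knockdown array stood above the other two, and the groups did not overlap. The change was 1.21-fold (log2 change 0.27, standard error 0.08, 95% interval 0.09 to 0.46, adjusted p = 0.33 from limma). Irf2, its antagonist at shared sites, read 8.60, 8.60 and 8.69 on the RKIP knockdown arrays, against 8.58, 8.62 and 8.47 on the control arrays. The second control array lay above 2 of the knockdown arrays. The log2 change of Irf2 was 0.07 (standard error 0.07, 95% interval -0.09 to 0.23, adjusted p = 0.762 from limma).

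IRF4 and IRF8 direct the development of B cells, plasma cells, macrophages and dendritic cells. Irf4 averaged 4.07 ± 0.21 in the RKIP knockdown and 4.21 ± 0.09 in the control knockdown (SD, n = 3 arrays each), all below the background measure of 5.33. Irf8 averaged 4.81 ± 0.10 in the RKIP knockdown and 4.94 ± 0.06 in the control knockdown (SD, n = 3 arrays each), also below it. Their log2 changes were -0.14 for Irf4 (adjusted p = 0.731 from limma) and -0.13 for Irf8 (adjusted p = 0.613), and at such signals neither a change nor its absence can be read from these arrays. The second probe set of Irf8 pointed the other way, with values of 4.76, 4.70 and 4.55 in the RKIP knockdown and of 4.41, 4.47 and 4.46 in the control knockdown (log2 change 0.22, adjusted p = 0.595 from limma over all probe sets). The mean of both Irf8 probe sets gave a log2 change of 0.05.

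Of 16 measured markers of blood cells, 6 lay above the background measure. Cd68 and Lyz2, the brightest of these, averaged 7.41 and 6.91 over all arrays. Ptprc, the marker of nearly all white blood cells, lay below that measure. It read 3.40 ± 0.09 in the RKIP knockdown and 3.61 ± 0.07 in the control knockdown (SD, n = 3 arrays each). Summed over the 16 markers, the linear intensity ranged between 692 and 732 in the RKIP knockdown and between 676 and 710 in the control knockdown, and their median log2 change was -0.03. Of the 16, 1 gene rose and none fell by limma's adjusted p, beside 0.203% and 0.0496% of all genes. At an unadjusted p under 0.05 from limma 2 were higher and 3 lower, beside 10.1% of all genes in either direction. The groups were separate on the high side for 2 and on the low side for 4, beside 8.67% of all genes on each side. Adjusted analysis of variance called none, beside 7 of all 22180 genes. The gene that rose was Cd3g, part of the T cell antigen receptor, with 5.71, 5.96 and 5.78 on the RKIP knockdown arrays, against 4.88, 5.10 and 5.00 on the control arrays (log2 change 0.82, adjusted p = 0.0381 from limma). Its control values lay below the background measure. The part of such cells in the changes described here was not tested.

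**Figure D2:**
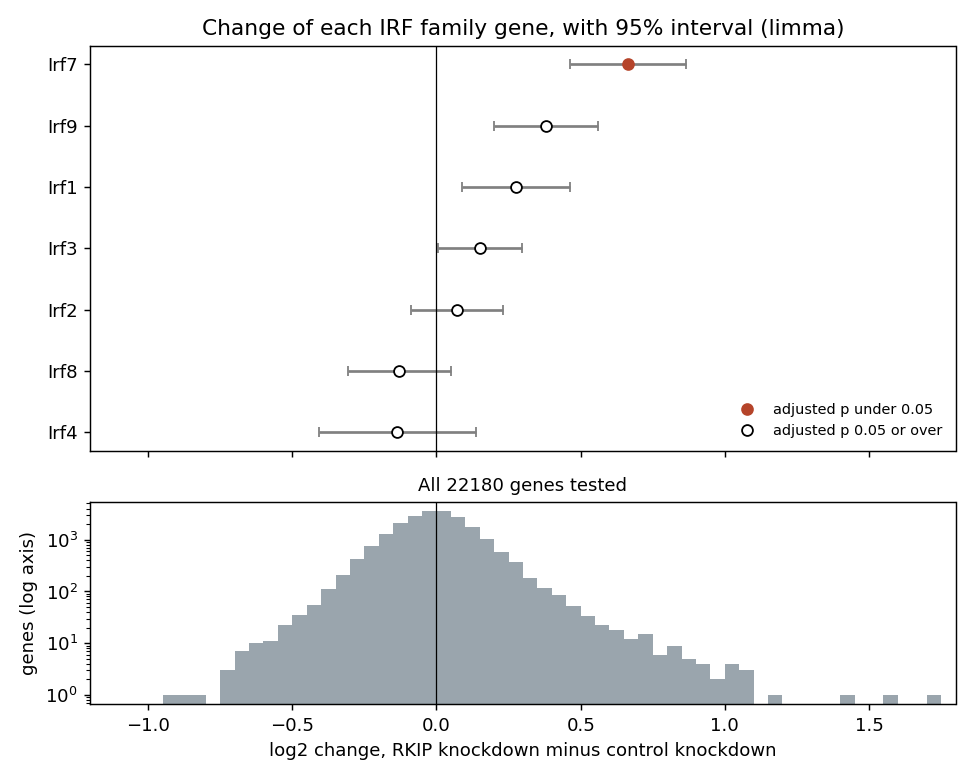
Log2 change of each IRF family gene, RKIP knockdown minus control knockdown, with its 95% interval from limma (upper panel, n = 3 arrays per group), above the distribution of log2 changes of all 22180 genes (lower panel, number of genes on a log axis). Irf7 lies at 0.67 in the thin upper tail of all genes, and the intervals of Irf2, Irf8 and Irf4 include 0.

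The log2 change of Irf7 was larger than that of each other member above the background measure. On each array the log2 value of Irf7 was set against that of every other member, which gave 6 comparisons. Irf7 had the largest log2 change of the members, so the sign of each difference followed from this choice. The p-values below are therefore no separate support for it. The gain of Irf7 exceeded that of Irf9 by 0.29, of Irf1 by 0.39, of Irf3 by 0.51 and of Irf2 by 0.60 on the log2 scale. The comparisons with Irf4 and Irf8 cannot be read, because both genes lay below the background measure. In the other 4 comparisons the 3 RKIP knockdown arrays lay above the 3 control arrays (exact permutation test, two-sided, p = 0.1 each and 0.1 after adjustment over the 6, which is as low as p can go with 3 arrays a group). The log2 value of Irf7 minus that of Irf3, for instance, lay between 0.08 and 0.15 in the RKIP knockdown and between -0.51 and -0.17 in the control knockdown. The probes of 2 genes differ in affinity, so only the shift between the groups can be read from such a difference.

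Within a group no array was the highest for all members. Among the control arrays, the second was highest for Irf7, Irf1 and Irf2, the third for Irf9 and Irf8, and the first for Irf3 and Irf4. Among the RKIP knockdown arrays, the first was highest for Irf7 and Irf8, the second for Irf9, Irf3 and Irf4, and the third for Irf1 and Irf2. The knockdown array with the most Pebp1 left, the first, had the highest Irf7 and Irf8 values and the lowest Irf9 value of its group. The array with the least Pebp1, the third, had the highest Irf1 and Irf2 values. A relation between Pebp1 and these values was not tested.

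The profile of Irf7 over the 6 arrays, taken as its log2 values minus their mean, was nearest by Euclidean distance to that of Plscr2, a phospholipid scramblase gene (distance 0.11 in log2 units). Il13ra1, a receptor chain for interleukin 13 (0.14), Pdzrn3, a ubiquitin ligase gene (0.15), Irgm2, an interferon-inducible GTPase gene (0.16), and 4632404H12Rik (0.17, with a mean of 4.22 below the background measure) followed. Plscr2 read 8.62, 8.48 and 8.62 on the RKIP knockdown arrays, against 7.84, 8.11 and 7.86 on the control arrays, so that its second control array was the highest of the controls, as for Irf7. Such likeness follows largely from the choice of genes by distance. Of these 5 genes, Il13ra1 (log2 change 0.66, adjusted p = 0.0258) and Irgm2 (0.66, adjusted p = 0.0419) also passed limma's test, and Plscr2 (0.64, adjusted p = 0.0736) and Pdzrn3 (0.63, adjusted p = 0.088) did not. The nearest other IRF was Irf9, 185th by this distance, and Irf1 was 329th.

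**Figure D3:**
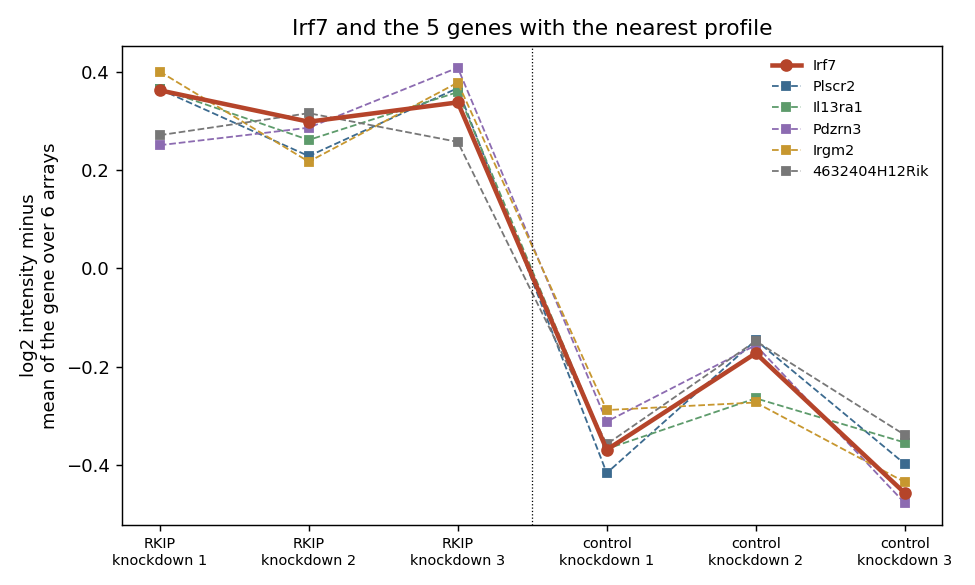
Log2 intensity minus the mean of the gene over the 6 arrays (y axis) for Irf7 and the 5 genes with the nearest profile, with the 3 RKIP knockdown arrays on the left and the 3 control arrays on the right. All 6 genes are separated by group, and the second control array of Irf7 and of Plscr2, Il13ra1, Pdzrn3, Irgm2 and 4632404H12Rik is the highest of the controls. Both traits follow largely from the choice of genes by nearness to Irf7.

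The promoters of the members are shown because family members are themselves targets of IRF and STAT proteins. RefSeq start windows (250 bases before and 50 after the start, build GRCm38.p6) were on hand for all 7 genes and were searched on both strands for the ISRE core, which is GAAA, any 2 bases and GAAA, for the shorter IRF core AANNGAAA, which every ISRE core contains, and for the STAT element TTCNNNGAA, known as GAS. Irf7 (chr7:141266375-141266674, minus strand), Irf9 (chr14:55603735-55604034, plus strand), Irf1 (chr11:53769764-53770063, plus strand) and Irf2 (chr8:46739495-46739794, plus strand) are printed as the 3 members with the largest log2 changes and the 1 member with an ISRE core, with matches in capitals.
Irf7: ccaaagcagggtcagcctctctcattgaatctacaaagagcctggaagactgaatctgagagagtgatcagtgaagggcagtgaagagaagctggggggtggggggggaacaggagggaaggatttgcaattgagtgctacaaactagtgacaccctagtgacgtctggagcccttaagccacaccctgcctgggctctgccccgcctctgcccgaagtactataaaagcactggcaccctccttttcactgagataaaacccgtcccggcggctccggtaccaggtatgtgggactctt
Irf9: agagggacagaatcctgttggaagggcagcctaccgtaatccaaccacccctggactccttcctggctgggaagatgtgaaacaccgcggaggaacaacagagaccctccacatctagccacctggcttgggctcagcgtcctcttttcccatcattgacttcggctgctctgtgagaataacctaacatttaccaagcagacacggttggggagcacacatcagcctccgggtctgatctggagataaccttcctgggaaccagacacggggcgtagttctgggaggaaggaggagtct
Irf1: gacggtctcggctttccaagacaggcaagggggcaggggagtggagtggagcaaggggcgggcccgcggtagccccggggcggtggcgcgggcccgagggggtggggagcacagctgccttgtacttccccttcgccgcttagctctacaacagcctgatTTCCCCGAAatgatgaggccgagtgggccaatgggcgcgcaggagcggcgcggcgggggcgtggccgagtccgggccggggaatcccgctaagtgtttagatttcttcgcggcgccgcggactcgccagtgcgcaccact
Irf2: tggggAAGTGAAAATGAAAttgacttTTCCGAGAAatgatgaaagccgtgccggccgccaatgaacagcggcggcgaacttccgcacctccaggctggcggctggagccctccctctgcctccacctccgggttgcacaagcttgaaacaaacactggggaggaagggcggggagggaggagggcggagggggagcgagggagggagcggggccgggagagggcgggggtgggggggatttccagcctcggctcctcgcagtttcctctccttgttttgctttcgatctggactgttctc

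The printed window of Irf1 held 1 GAS match, at -90 to -82 from the start. That of Irf2 held 1 ISRE core at -241 to -232, within 2 overlapping IRF cores, and 1 GAS match at -224 to -216. Irf8 held 2 GAS matches in 1 of its 2 windows. In the windows of Irf7, Irf9, Irf3 and Irf4, and in the second windows of Irf9 and Irf1, these letters were not found, which says nothing of sites outside them. Of all 32851 RefSeq windows, 3.44% held the ISRE core, 23.9% the IRF core and 8.30% the GAS element. Within the family only the window of Irf2, whose log2 change was 0.07, held an ISRE core. A link between these matches and the changes was not tested.

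Signals that lead to IRF activation were read from 20 measured sensors, adaptors and kinases of 23 listed. Of these 20, 3 rose and none fell (limma, adjusted p under 0.05), beside 0.203% and 0.0496% of all genes. The median log2 change was 0.05, beside -0.01 for all genes. Adjusted analysis of variance called none of the 20, beside 7 of all 22180 genes. The 3 code for RNA helicases of the RIG-I family. Ifih1, which encodes MDA5, read 6.56, 6.64 and 6.57 on the RKIP knockdown arrays, against 5.59, 5.73 and 5.46 on the control arrays (2.00-fold, adjusted p = 0.0173 from limma). Dhx58, which encodes the regulator LGP2, had a log2 change of 0.76 (adjusted p = 0.028 from limma), and Ddx58, which encodes RIG-I itself, of 0.54 (adjusted p = 0.0413). For these 3 sensors the groups were apart on every array. The kinases that phosphorylate IRF3 and IRF7, named after their values were seen, had log2 changes of 0.06 for Tbk1 (95% interval -0.08 to 0.21) and 0.03 for Ikbke (95% interval -0.13 to 0.20), with overlapping groups. Tlr3, the endosomal sensor of double-stranded RNA, also named after its value was seen, had separate groups and a log2 change of 0.53 (adjusted p = 0.118 from limma). Over the 20 genes the groups were separate on the high side for 7 and on the low side for 2, beside 8.67% of all genes on each side. The 2 were the adaptor genes Mavs (log2 change -0.11) and Myd88 (-0.12), named after their values were seen.

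Of 19 measured interferon genes of all types, among which IRF3 and IRF7 are known to activate the beta and alpha genes, none passed limma's test in either direction. At an unadjusted p under 0.05, 1 was higher by limma, beside 5.01% of all genes, and none differed by analysis of variance. Their median log2 change was 0.02, 7 of the 19 lay above the background measure, and the brightest of them, Ifnl2 and Ifna1, had log2 changes of -0.03 and 0.08. For the interferon genes below that measure neither a change nor its absence can be read. Among these was the beta gene Ifnb1, named after its values were seen, with means of 2.60 in the RKIP knockdown and 2.71 in the control knockdown. Of 10 measured receptors, Janus kinases and STAT partners of IRF9, 3 were higher and none lower at an unadjusted p under 0.05 by limma. This stands beside 5.01% of all genes on the high side. None of the 10 passed limma's adjusted test either, and adjusted analysis of variance called none, beside 7 of all 22180 genes. The brightest were Jak1 and Ifnar1, the kinase and a chain of the interferon alpha receptor, with log2 changes of 0.03 and 0.04. Stat2, the partner of IRF9 in ISGF3 and named after its values were seen, read 9.02, 9.07 and 9.10 on the RKIP knockdown arrays, against 8.64, 8.79 and 8.85 on the control arrays. Its groups were separate (log2 change 0.30, adjusted p = 0.257 from limma). Of 15 measured protein partners and regulators of IRF proteins, 2 were higher and 1 lower at an unadjusted p under 0.05 by limma. This stands beside 10.1% of all genes in either direction. None of the 15 passed limma's adjusted test, and analysis of variance with adjustment called none, again beside 7 of all 22180 genes. The coactivators Crebbp and Ep300, the brightest of them, had log2 changes of 0.08 and 0.03.

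**Figure D4:**
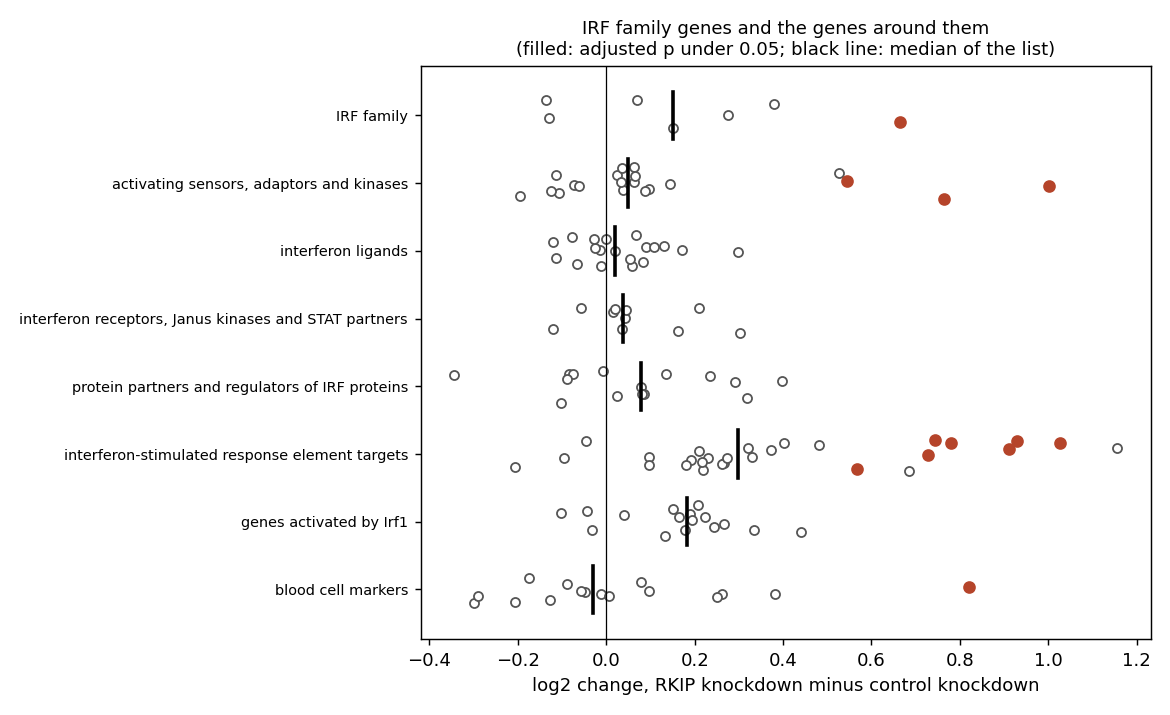
Log2 change of each gene (x axis, RKIP knockdown minus control knockdown, n = 3 arrays per group) for the IRF family and for 7 lists of genes around it, with filled points past an adjusted p of 0.05 in limma and a black line at the median of each list. The filled points are Irf7, 3 sensors, 7 response element targets and 1 blood cell marker, and the medians run from -0.03 for the blood cell markers to 0.30 for the response element targets.

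Genes known to be induced through the ISRE by ISGF3 and IRF7 held 7 of the 45 genes called higher over the whole array. Of 28 measured targets, these 7 rose and none fell, beside 0.203% and 0.0496% of all genes, and 21 did not pass the test. The change was above 0 for 25, with a median of 1.23-fold (log2 change 0.30, beside -0.01 for all genes). Adjusted analysis of variance called none of the 28, but also only 7 of all 22180 genes. Limma without any 1 array called 0 to 4 genes higher over the whole array. The groups were separate on the high side for 20 of the 28, beside 8.67% of all genes, and on the low side for none. Oas2, a synthetase that activates RNase L, read 7.93, 7.89 and 7.87 on the RKIP knockdown arrays, against 7.10, 7.20 and 7.16 on the control arrays. Usp18, which removes ISG15 from proteins, read 7.71, 7.94 and 7.89 on the RKIP knockdown arrays, against 6.73, 7.05 and 6.68 on the control arrays. In both genes the gap between the groups was wider than the range within either group, with log2 changes of 0.74 for Oas2 (adjusted p = 0.0173 from limma) and 1.03 for Usp18 (adjusted p = 0.0381). Ifit1, which binds viral RNA, rose by 0.93, Oasl2, an oligoadenylate synthetase-like protein gene, by 0.91, Xaf1, a proapoptotic factor gene, by 0.78 and Rtp4, an antiviral transport protein gene, by 0.57 on the log2 scale. The rise of Irf7 lay within the range of these targets, of which Irf7 is itself known to be one. The largest value of the list, named after it was seen, was that of Oas1g, an oligoadenylate synthetase gene with close copies whose probes can share signal. It read 5.93, 6.05 and 6.31 on the RKIP knockdown arrays, against 5.21, 4.99 and 4.62 on the control arrays, and it did not pass the test (log2 change 1.16, adjusted p = 0.0751 in limma). Lower in the list, Ifit2 and Cxcl10, named after their values were seen, each had a log2 change of 0.10 with overlapping groups, and Pml one of -0.10.

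Genes activated by IRF1 were listed separately. Of 16 measured genes none passed limma's test, and analysis of variance with adjustment called none, beside 7 of all 22180 genes. At an unadjusted p under 0.05 from limma 8 were higher and none lower, beside 5.01% of all genes higher and 10.1% in either direction. The median change of the 16 was 1.14-fold, and for 8 of them the groups were separate on the high side, beside 8.67% of all genes. B2m, the light chain of MHC class I, and Vcam1, an adhesion molecule, the brightest of them, had log2 changes of 0.04 and 0.13. Psmb9, an immunoproteasome subunit gene that is a classic target of IRF1 and was named after its values were seen, read 7.93, 7.91 and 7.94 on the RKIP knockdown arrays, against 7.70, 7.62 and 7.65 on the control arrays (log2 change 0.27, adjusted p = 0.19 from limma).

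The ISRE cores of the genes that rose are shown because they are the letters IRF proteins read. Of 19 response element targets with a RefSeq start window 9 held the core (47.4%), against 657 of 16990 genes tested with a window (3.87%). The list was written from known ISRE targets, so its share is no result of these arrays. Of the 7 targets that rose, 4 had a window and 2 of these held the core, beside 7 of 15 with a window among the targets that did not pass. Among the genes called higher over the whole array, 9 of 30 with a window held the core, and 0 of 9 of those called lower. These shares were not tested. The cores of the targets and sensors that passed limma's test, with up to 10 flanking bases, are Ifit1 (chr19:34640775-34640804 and chr19:34640794-34640823, minus strand), Isg15 (chr4:156200877-156200906, minus strand, the first of 3 overlapping matches, named after its value was seen), Ddx58 (chr4:40239804-40239833, plus strand) and Ifih1 (chr2:62646206-62646233, minus strand), all in GRCm38.p6 with the core in capitals.
Ifit1, upstream match: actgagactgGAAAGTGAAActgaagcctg
Ifit1, downstream match: tcagcagtgaGAAACTGAAActgagactgg
Isg15: tatgccgtagGAAAAGGAAAccgaaacaga
Ddx58: ctggccatagGAAATCGAAActgcctcagg
Ifih1: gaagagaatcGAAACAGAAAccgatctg

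The matches of Ifit1 and Isg15 lay before the start site and those of Ddx58 and Ifih1 just after it. Isg15, the ubiquitin-like protein gene, rose by 0.73 on the log2 scale (adjusted p = 0.0489 from limma), near the change of Irf7.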

How the data were processed

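The authors deposited 1 table of log2 intensities for 41345 probe sets on 6 arrays. Their processing notes name RMA and the oligo package without versions. RMA corrects background, gives every array the same distribution of values and summarizes probes, so a change shared by most transcripts would be removed. None of the 6 columns was left out, and no pair was identical. Raw intensities were not analysed here.

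Probe sets were named through the platform's probe table. Those with 1 symbol (23521) gave 22180 genes, the brightest probe set standing for a gene, while 1820 with several symbols and 16004 unnamed ones entered no test of genes. No filter on signal was applied. Groups were compared with limma 3.58.1 in R 4.3.3 (lmFit, eBayes, 4 residual degrees of freedom, Benjamini-Hochberg adjustment over all genes, threshold 0.05), and the script was tested on simulated data. Changes are RKIP knockdown minus control knockdown. The differences between Irf7 and the other members were tested by exact permutation of arrays. The number of arrays limits the precision.

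The members and gene lists were chosen with earlier results of these data known. Named genes are the members, Pebp1, up to 6 called genes of each list (by smallest p) or else its 2 brightest, and the 5 genes nearest to Irf7. Krt8, Epcam, Ptprc, Cd68 and Lyz2 are named outside this rule, as checks of the cell line, after their values were seen. Alternatives were other normalizations, filters, probe set choices and variance models, array weights, a replicate block, analysis of variance (also at 1.5-fold and p under 0.01, as in the methods), a threshold of 0.1 and each array left out. Sequences are from RefSeq, GRCm38.p6.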

Additional observations from a re-analysis of the deposited data

How the results depend on the processing

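Irf7 kept its direction under all 17 alternatives, and its test lost the threshold under 10 of them. Irf7 was called under the other 7, which include the laxer threshold of 0.1. Among these, the limma adjusted p was 0.0384 after centring arrays on their medians and 0.0147 with the dimmest 33.3% of genes removed. With a variance trend and robust fitting it was 0.000305. Analysis of variance at 1.5-fold and p under 0.01 called Irf7 among 58 genes higher, with 15 lower. In the fits where Irf7 lost the threshold, its log2 change and limma adjusted p were 0.64 and 0.0604 after a second quantile normalization. They were 0.67 and 0.163 with all probe sets as separate features, and 0.60 to 0.75 and 0.102 to 0.221 without any 1 array. Adjusted analysis of variance gave 0.67 and 0.18. With the replicate number as a block limma gave 0.67 and an adjusted p of 0.217 for Irf7. Deviations from the group means of same-numbered arrays correlated at -0.01, 0.07 and 0.10 over genes. Those of differently numbered arrays correlated at -0.12 to 0.05. Values this weak cannot decide whether the numbers pair the arrays. The block left 0 genes called higher and 0 lower (1119 and 1173 at an unadjusted p under 0.05 from limma). The number of family genes called higher was 0 in each fit where Irf7 lost the threshold. In those fits 3 or 4 were higher and 0 or 1 lower at an unadjusted p under 0.05. The number called was 2 with a variance trend and robust fitting, where Irf9 (log2 change 0.38, adjusted p = 0.0139 from limma) joined Irf7. No family gene was called lower under any alternative. Irf8 turned to a log2 change of 0.0475 with the mean of its probe sets, and no other member changed direction. Irf4 and Irf8 gave no value once the dimmest 33.3% of genes were removed.

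Over all genes, the numbers called higher and lower were 116 and 40 with the dimmest 33.3% of genes removed, 2 and 0 with all probe sets, 307 and 213 with a variance trend and robust fitting, 4 and 3 by analysis of variance with adjustment, and 76 and 22 at a threshold of 0.1. Centring arrays on their medians left 7 genes lower and 52 higher. Without any 1 array limma called 0 to 4 genes higher and 0 lower (869 to 1083 and 898 to 1125 at an unadjusted p under 0.05). The causes of these moves were not tested. The signals of Irf4 and Irf8 below the background measure limit what can be read for them.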
